A study of Vitis amurensis with 6 samples.

Results

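The regions described here are stretches of open chromatin in Amur grape (Vitis amurensis) leaves that every control library contained and that only some of the cold libraries contained. They were chosen by the presence or absence of transposase hypersensitive sites (THSs), the sites that a peak caller lists where the transposase used in ATAC-seq had cut often. Overlapping THSs of the 6 deposited lists (1 bp or more) were joined, which gave 44710 regions, of which 39746 lay on chromosomes 1 to 19. A region entered the set when it lay on these chromosomes and had a THS in all 3 control libraries and in exactly 1 or 2 of the 3 cold libraries. The set held 1810 regions, 4.55% of the regions on chromosomes 1 to 19 and 35.8% of the 5058 that had a THS in all 3 control libraries. The presence of THSs in control and in cold chose the members, so the values below describe them and carry no test of control against cold. Without control replicate 3 the same rule gave 3099 regions, without cold replicate 1 it gave 1033 and without cold replicate 3 it gave 1196.

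Leaves came from wild-type in vitro plants that were 1 month old. The control group was kept at 26°C and sampled at 0 h (3 libraries), and the cold group was held at 4°C for 2 h (3 libraries), both in the light. Per the study's methods, each library was a separate biological replicate made from pooled leaves of several plants. There was no 2 h sample at 26°C, so cold and elapsed time cannot be told apart, and lists of THSs hold no cell types against which the leaf label could be checked.

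Most nuclear DNA is wrapped around histones, and regulatory proteins reach it mainly at promoters and enhancers, where nucleosomes are displaced and the transposase can cut. In plants, chilling sets off a rapid transcriptional response led by C-repeat binding factors, AP2/ERF proteins that bind C-repeat elements in such open sites. A THS is a yes or no call on a continuous signal, so a site listed in some replicates and not in others can differ little in signal between them.

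Cold replicate 1 contained most of these sites. It had a THS in 1313 of the 1810 members (72.5%, exact binomial 95% interval 70.4 to 74.6%), cold replicate 2 in 896 (49.5%, 47.2 to 51.8%) and cold replicate 3 in 588 (32.5%, 30.3 to 34.7%). These intervals cover counting error only, and neighbouring sites are not independent. Of the 823 members found in 1 cold library (45.5% of the set), 546 were in cold replicate 1 alone, 169 in cold replicate 2 alone and 108 in cold replicate 3 alone. The other 987 members (54.5%) were found in 2 cold libraries. The pair of cold replicates 1 and 2 had 507 of them, the pair of 1 and 3 had 260, and the pair of 2 and 3 had 220. The single most common pattern was thus a site present in all control libraries and in cold replicate 1 alone, which made up 30.2% of the set.

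**Figure D1:**
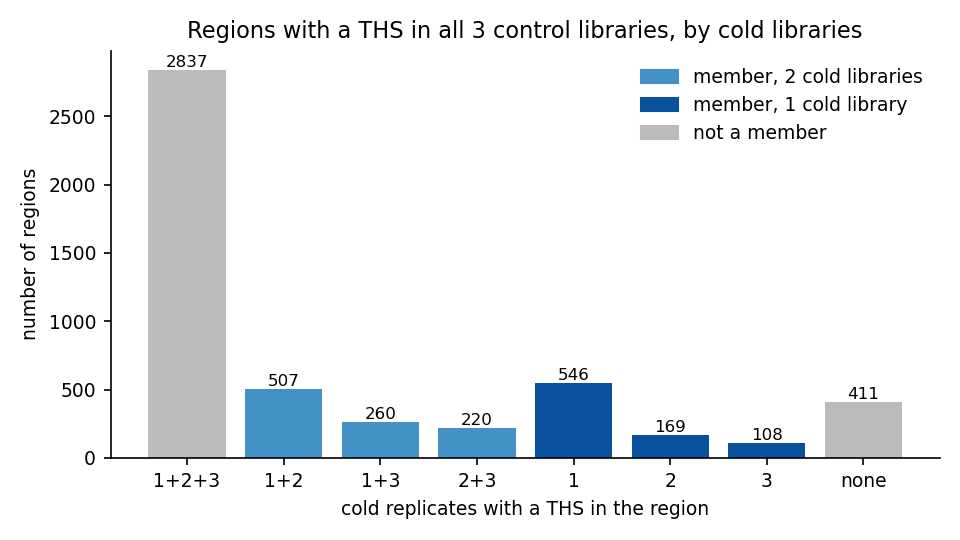
Bars give the number of regions on chromosomes 1 to 19 with a THS in all 3 control libraries, by the cold replicates that also had one. The members are the 6 blue bars (108 to 546 regions), between the 2837 regions present in every library and the 411 present in no cold library.

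Single libraries differed in how often they lacked a site that all others had, in both groups. Of the regions on chromosomes 1 to 19 called in the 5 other libraries, cold replicates 1, 2 and 3 lacked 220 of 3057 (7.20%), 260 of 3097 (8.40%) and 507 of 3344 (15.2%). Control replicates 1, 2 and 3 lacked 65 of 2902 (2.24%), 110 of 2947 (3.73%) and 287 of 3124 (9.19%). The groups overlapped, since control replicate 3 lacked a larger share than cold replicates 1 and 2. With the rule turned round, 645 of the 3557 regions with a THS in all 3 cold libraries (18.1%) were found in 1 or 2 control libraries. The control lists of replicates 1 and 2 were the longest, with 16145 and 17083 THSs on chromosomes 1 to 19, against 11169 to 13372 in the other 4 lists.

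The sites kept in part by cold had middling scores in the control library that ranked them lowest. The score of a THS was read as the −log10 of the peak caller's q-value and was ranked within its own list as a percentile, because scores are not scaled between libraries. The lowest of a region's 3 control percentiles served as its control score. Over the members its median was 41.8 (quartiles 23.2 and 60.9). It was 66.8 when only THSs with at least the median score of all lists were used. This rise is in part built in, because low-scored THSs were dropped while percentiles stayed those of the full lists. It was 73.9 when THSs had to cover at least 50% of a region. With all THSs, the median was 24.8 over the 411 regions without a THS in any cold library. It was 34.0 over the members kept by 1 cold library, 47.5 over the members kept by 2, and 80.3 over the 2837 regions found in all 6 libraries. Control score and the number of cold libraries therefore ran in the same order over these 4 classes. The quartiles of neighbouring classes overlapped, with 12.5 to 40.3 for absent sites and 17.7 to 53.7, 30.7 to 65.6 and 64.1 to 91.1 for sites kept by 1, 2 and 3 cold libraries.

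Among the 677 control-constant regions with a control score of at most 20, 62.6% were members, 25.4% were absent from cold and 11.96% were present in all 6 libraries. The share of members was 59.8, 54.6 and 30.0% in the next 3 bins of 20 percentiles. In the highest bin it was 7.21%, or 113 of 1568 regions, while 92.4% of that bin were present in all 6 libraries. Each cold library followed the same course over all control-constant regions. The share held rose from 55.8 to 98.0% in cold replicate 1, from 37.1 to 96.4% in cold replicate 2 and from 28.95 to 95.1% in cold replicate 3. Within the members the order of the cold libraries was the same in every bin. Cold replicate 1 held 69.8 to 77.5% of the members, cold replicate 2 held 40.1 to 56.6% and cold replicate 3 held 27.1 to 37.2%.

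**Figure D2:**
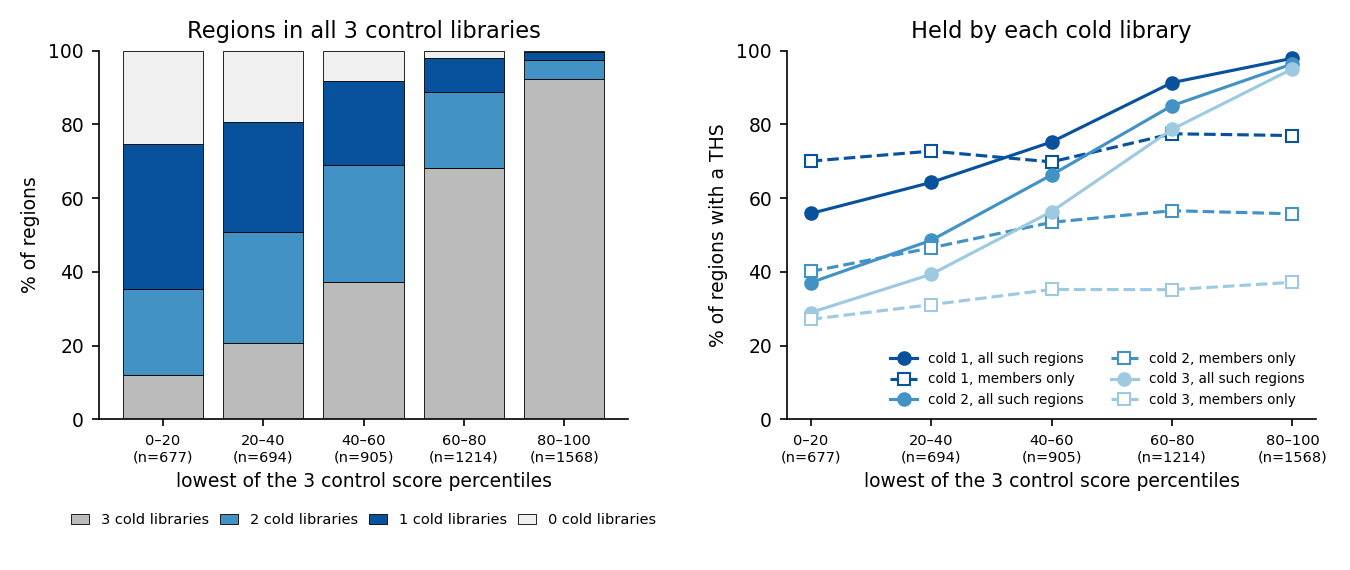
Regions with a THS in all 3 control libraries, grouped by the lowest of their 3 control score percentiles (x axis, number of regions below each bin). Left, the percentage found in 3, 2, 1 or 0 cold libraries, where the members (blue) shrink from 62.6% in the lowest bin to 7.21% in the highest. Right, the percentage held by each cold replicate, over all such regions (filled circles) and over the members alone (open squares, 27.1 to 77.5%).

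In the cold libraries that had a THS at these sites, it ranked near the middle of the list. The median percentile of the members' best THS was 62.9, 67.0 and 54.0 in control replicates 1, 2 and 3. It was 57.5 in cold replicate 1, 50.7 in cold replicate 2 and 45.1 in cold replicate 3, each over the members that the library held. Regions present in all 6 libraries had medians of 81.9 to 88.4 in control and 75.9 to 82.3 in cold. In raw scores the members spanned 1.34 to 300.2 in control replicate 1 (median 5.30), 1.51 to 258 in control replicate 2 (5.28) and 1.43 to 249 in control replicate 3 (4.61). The ranges in cold were 1.33 to 232 (median 4.45), 1.43 to 273 (4.86) and 1.34 to 301 (3.93). Over all THSs on chromosomes 1 to 19 the median scores were 3.85, 3.52 and 4.15 in control replicates 1, 2 and 3. In cold replicates 1, 2 and 3 they were 3.65, 4.39 and 3.93.

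Member by member, the median difference between the cold percentile and the mean of the 3 control percentiles was -2.87 points in cold replicate 1, -9.80 in cold replicate 2 and -12.6 in cold replicate 3. At regions present in all 6 libraries these median differences were -1.42, -3.87 and -6.31 points. The cold value exceeded the control mean at 533 of 1313 members in cold replicate 1 (40.6%), 244 of 896 in cold replicate 2 (27.2%) and 133 of 588 in cold replicate 3 (22.6%). It lay above all 3 control values at 157, 73 and 30 members and below all 3 at 441, 401 and 298. A cold library without a THS has no value at a member, so these differences cover the kept calls alone. A percentile also depends on list length, since the same place from the top gives a lower percentile in a shorter list. Control lists 1, 2 and 3 held 18770, 19537 and 13019 THSs on all sequences, and the cold lists 13350 to 15694. The part of list length in these differences was not tested.

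Replicates ranked the members less alike than they ranked the constantly open sites. Between control libraries, Spearman's rho of the percentiles over the 1810 members was 0.572 for replicates 1 and 2, 0.488 for replicates 1 and 3 and 0.476 for replicates 2 and 3. Over the 2837 regions of all 6 libraries the same pairs reached 0.909, 0.898 and 0.886. Across groups, cold replicate 1 correlated with the control libraries at 0.459 to 0.558 over its 1313 members, inside the range set by control pairs at its upper end and just under it at its lower end. For cold replicate 2 rho was 0.380 to 0.481 (896 members) and for cold replicate 3 it was 0.425 to 0.533 (588). Both reached farther below the range of the control pairs. Within the cold group, rho was 0.683 for replicates 2 and 3 (220 members), 0.458 for replicates 1 and 2 (507) and 0.448 for replicates 1 and 3 (260). Values are given as descriptions over sites that share their libraries.

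Merged members were between 221 and 3667 bp wide, with a median of 780.5 bp (quartiles 545 and 1119 bp). Regions kept by 0, 1, 2 and 3 cold libraries had median widths of 679, 756, 807 and 819 bp, an order that is in part built in because each further list can only widen a merged region. The THSs inside the members differed far more between libraries. Median widths were 481, 480.5 and 379 bp in control replicates 1, 2 and 3 and 393.5 bp in cold replicate 1, which lay between the control values. In cold replicates 2 and 3 they were 195 and 168.5 bp. All THSs of these 2 lists were narrow (median 181 and 169 bp on chromosomes 1 to 19, against 336 to 380 bp in the other 4), so that narrow THSs were not particular to the members.

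The narrowest THS listed was 199 to 217 bp in control replicates 1 to 3 and cold replicate 1, while the lists of cold replicates 2 and 3 went down to 111 and 106 bp. The study's methods name an extension of 200 bp for the calling and no different setting for any library. The lists of cold replicates 2 and 3 thus stand apart from that setting in all their THSs, not at the members alone. Whether they were called differently was not tested. Of the 896 members held by cold replicate 2, 419 (46.8%) had no THS of at least 199 bp in that library, and the same held for 360 of the 588 in cold replicate 3 (61.2%). At regions present in all 6 libraries these shares were 16.9 and 22.7%. When all lists were held to a minimum width of 217 bp, the rule gave 2383 regions, of which cold replicates 1, 2 and 3 held 90.4, 33.9 and 15.9%. Under that limit 1424 of the 1810 members still had a THS in all 3 control libraries and in at least 1 cold library, and 269 kept a THS in all controls but in no cold library. Among the cold lists, only those of replicates 2 and 3 had THSs below 199 bp to lose. The shift in the split is thus in part built into the limit. The part of width in the split of the 1810 members was not tested.

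**Figure D3:**
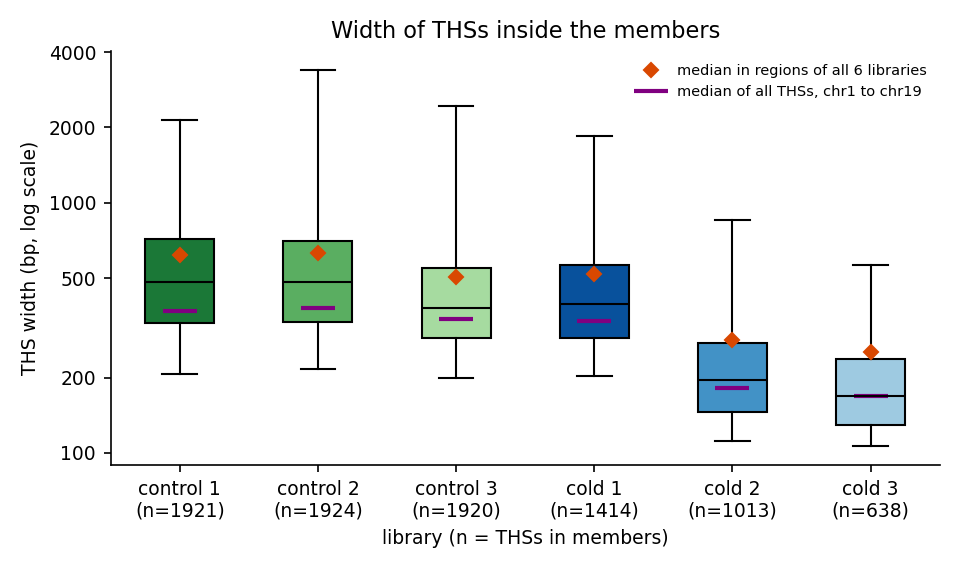
Width of the THSs inside the members in each library (log axis). Boxes give the quartiles with the median as a line, and whiskers the narrowest and widest THS. Diamonds mark the median width in regions present in all 6 libraries and short bars the median of all THSs on chromosomes 1 to 19. Cold replicates 2 and 3 (medians 195 and 168.5 bp) lie below the other 4 libraries (379 to 481 bp).

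Strong members were narrow in the control leaves as well. In the highest bin of control scores (above 80), the 113 members had a median merged width of 446 bp, against 672 bp for the 1449 regions present in all 6 libraries. This was not particular to the members, since the 6 regions absent from cold in that bin had a median of 440.5 bp. In the bin from 60 to 80, the 23 absent regions had 437 bp and the 364 members 702.5 bp. In the bin above 80, the control THSs alone were also shorter in members than in regions of all 6 libraries. Median lengths in control replicates 1, 2 and 3 were 373, 356 and 349 bp in members. They were 590, 587 and 542 bp in regions of all 6 libraries and 379, 380.5 and 430 bp in the 6 absent regions. In the lowest bin the corresponding medians were 421.5, 468.5 and 327 bp in 424 members. In the 81 regions of all 6 libraries in that bin they were 571, 586 and 354 bp. The 3 control lists had at least 1 base in common at 1656 of the 1810 members (91.5%), with a median shared length of 276 bp. At the other 154 members, neighbouring THSs were joined into 1 region without any base present in all 3 lists. Shared bases were found at 83.9% of the regions absent from cold and at 99.0% of those in all 6 libraries.

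Where the controls shared bases, the cold THS usually lay on them. This is in part built in, because overlap joined the control and cold THSs of a region. It touched the shared bases at 1062 of 1194 members held by cold replicate 1 (88.9%), at 720 of 843 in cold replicate 2 (85.4%) and at 452 of 550 in cold replicate 3 (82.2%). At regions of all 6 libraries the shares were 98.6, 96.8 and 95.7%. The midpoint of the cold THS lay a median of 90, 97 and 96 bp from the midpoint of the shared control bases in cold replicates 1, 2 and 3. Several separate THSs inside a member were uncommon. They occurred in 5.86 to 6.24% of members in the control libraries and in 6.93, 11.8 and 8.33% in cold replicates 1, 2 and 3.

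A control score of at least 50 was found at 730 members (40.3%) and one of at least 90 at 24. Of the 411 regions absent from every cold library, 0 reached a control score of 90, while 785 regions of all 6 libraries did. The 24 strong members were missing from cold replicates in several ways. Cold replicate 1 alone held 7 of them, cold replicates 2 and 3 together held 7, replicates 1 and 2 held 5, replicates 1 and 3 held 4 and replicate 2 alone held 1. From each of the 6 patterns the 3 members with the highest control score are named next, with coordinates on the grape 12X assembly. Their scores are −log10 q, and "no THS" means that the list of a library held none that overlapped the region. Cold and control are set against each other by percentiles alone, and of the 27 cold values at these sites 1 lay above all 3 control percentiles, 12 inside their range and 14 below it. These sites were named for high control percentiles, so nothing is read from that split. Which genes lie near these sites was not analysed here, since no gene annotation or genome sequence of the assembly was used.

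The highest control score of the set belonged to chr9:2246354-2246709. This site had scores of 246, 174 and 249 in control replicates 1, 2 and 3, of 232 in cold replicate 1 and of 301 in cold replicate 3. Cold replicate 2 had no THS there, and its nearest one lay 28202 bp away. The THS was 355 or 356 bp long in the controls and in cold replicate 1, but 106 bp in cold replicate 3, which is the narrowest that list contains. The percentiles of both cold libraries (97.4 and 97.5) lay inside the control range of 97.2 to 98.1. The pattern recurred at chr11:8605129-8605444, with 70.0, 42.4 and 62.4 in control, 53.0 in cold replicate 1 and 75.7 in cold replicate 3 from a THS of 110 bp. At chr6:14024971-14025343 the scores were 39.1, 23.7 and 45.2 in control, 33.5 in cold replicate 1 and 23.7 in cold replicate 3, again from a THS of 106 bp. The cold percentiles were inside the control range at the former site and below it at the latter. In all of these the THS of cold replicate 3 was narrower than 111 bp, the narrowest in the list of cold replicate 2. That was so at 19 of the 260 members with this pattern (7.31%), and at 19 of the 2837 regions of all 6 libraries (0.670%).

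Sites held by cold replicates 2 and 3 but not 1 included chr12:17564758-17565091. It had scores of 73.4, 46.4 and 89.9 in control, no THS in cold replicate 1, and 41.5 and 51.8 in cold replicates 2 and 3. The THSs were 329 to 334 bp long in all 5 libraries that had one, and the nearest THS of cold replicate 1 lay 318 bp away. At chr9:12268055-12268930 the control scores were 67.9, 38.5 and 87.9, against 28.3 and 29.3 in cold replicates 2 and 3. At both of these sites the cold percentiles lay below all controls (90.5 and 92.4 against 94.5 to 95.6 at the first). At chr16:9808148-9808699 the scores were 69.8, 64.0 and 65.6 in control and 103 and 91.6 in cold, and there the cold percentiles (95.7 and 95.3) lay inside the control range of 93.4 to 95.9. Cold replicate 1 had its nearest THS 2370 and 4529 bp from the last 2 sites.

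Cold replicate 1 alone held chr2:11517695-11518168, with scores of 187, 188 and 135 in control and 153 in cold replicate 1. Cold replicates 2 and 3 had no THS there, though each had one 1234 and 1233 bp away. Next came chr4:20295553-20295957, with 67.9, 49.75 and 102 in control and 60.6 in cold replicate 1. Here the nearest THS of cold replicates 2 and 3 lay 24267 and 25550 bp away. The third was chr12:11454532-11455235, with 48.95, 56.4 and 53.9 in control and 45.3 in cold replicate 1. The percentile of cold replicate 1 lay inside the control range at the first site (96.7 against 95.8 to 98.0). At the other sites it was under all controls by about 1 point or less (94.0 against 94.9 to 95.3, and 92.66 against 92.70 to 95.5). Cold replicates 2 and 3 had a THS 287 and 347 bp from the third site.

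Cold replicate 2 alone held chr11:15256478-15257037, the second highest of the set. It had 300.2, 258 and 243 in control and 273 in cold replicate 2, whose THS was 161 bp long against 300 to 560 bp in the controls. Cold replicate 3 had a THS 1835 bp away and cold replicate 1 one at 8843 bp. At chr8:3133748-3134430 the scores were 25.7, 22.6 and 23.1 in control and 38.0 in cold replicate 2. At chr17:16253555-16254035 they were 9.34, 8.70 and 10.2 in control and 8.02 in cold replicate 2. The cold percentile was inside the control range at the first and second site (97.6 and 89.9) and below it at the third (67.5 against 79.0 to 79.8).

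Cold replicate 3 alone held 2 named sites on chromosome 5. At chr5:13108367-13109033 the scores were 20.1, 12.2 and 19.2 in control and 44.9 in cold replicate 3, and at chr5:16565045-16565700 they were 17.9, 15.1 and 13.8 in control and 26.6 in cold replicate 3. At the first of these the cold percentile (91.3) exceeded the control range of 85.1 to 88.9, and at the second (86.9) it lay inside the range of 83.4 to 87.8. At chr13:16356377-16356979 the scores were 13.2, 12.2 and 11.9 in control and 13.1 in cold replicate 3, whose percentile of 78.6 was under the control range of 81.4 to 85.1. The nearest THSs of cold replicates 1 and 2 lay 5027 to 13948 bp from these 3 sites.

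The last group lacked a THS in cold replicate 3 alone. At chr8:10981139-10981475 the scores were 39.0, 39.5 and 44.1 in control and 26.7 and 22.1 in cold replicates 1 and 2. At chr2:15707586-15708573 they were 51.2, 34.5 and 40.6 in control and 36.3 and 31.95 in cold. At chr8:6533388-6533824 they were 47.5, 47.9 and 39.1 in control and 52.0 and 46.1 in cold. By percentile, both cold libraries were below all controls at the first site. At the other sites, cold replicate 1 lay inside the control range and cold replicate 2 below it, by as little as 91.30 against 91.35 at the last. Cold replicate 3 had its nearest THS 23451, 37743 and 739 bp away.

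**Figure D4:**
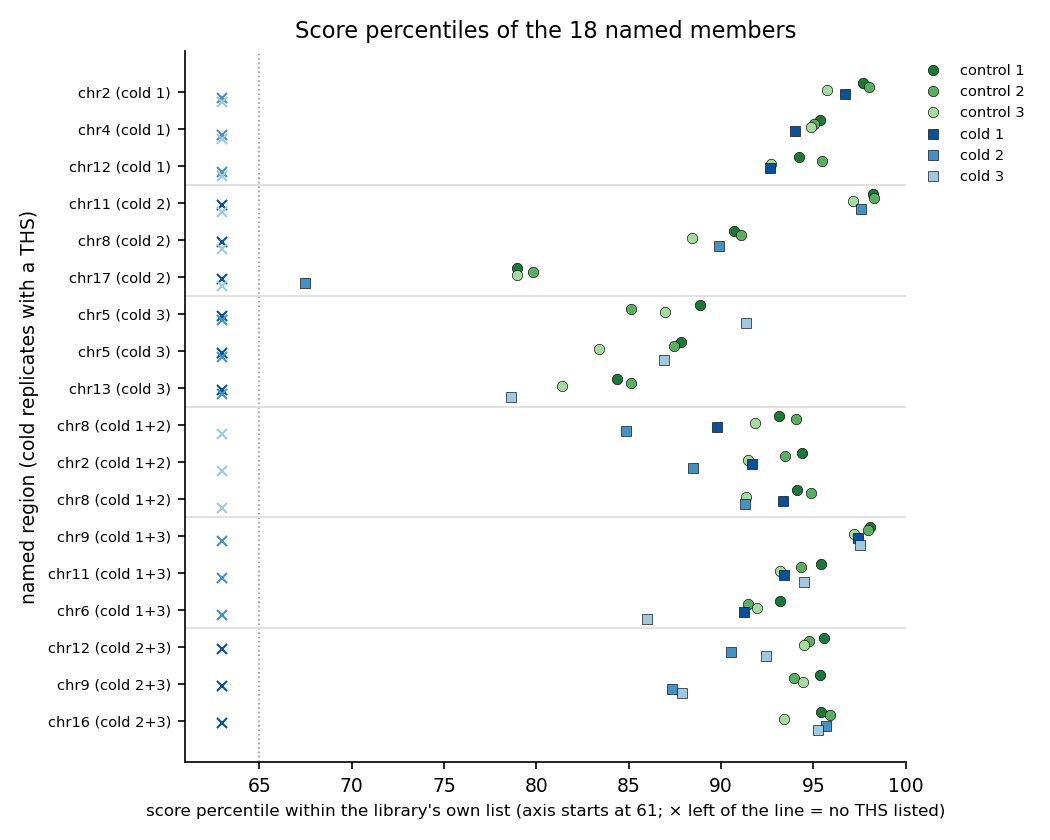
Score percentile of the 18 named members within the list of each library (axis from 61 to 100), with 3 members for each pattern of cold presence. Circles are control and squares cold replicates, and crosses left of the dotted line mark libraries without a THS. Of the 27 cold values 12 lie inside the range of the 3 controls, 14 below it and 1 above it (91.3 against 85.1 to 88.9 at the upper chr5 site).

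At most of the members that a cold library lacked, that library had no THS within 1000 bp. The nearest one lay within 1000 bp at 90 of 497 members that cold replicate 1 lacked (18.1%), at 151 of 914 for cold replicate 2 (16.5%) and at 177 of 1222 for cold replicate 3 (14.5%). Median distances were 6912 bp (cold replicate 1) and 6967.5 bp (both others), and the largest was 182346 bp. At the 411 regions absent from all cold libraries the shares within 1000 bp were 15.3, 13.1 and 9.73%. The share for sites placed without regard to the THSs was not computed, so these values do not show whether the distances are short or long.

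Members lay on all 19 chromosomes, from 48 on chromosome 17 to 144 on chromosome 12. As a share of the regions with a THS in all 3 control libraries, they ranged from 30.0% on chromosome 17 (exact binomial 95% interval 23.0 to 37.7%) to 43.0% on chromosome 4 (36.7 to 49.4%). The interval for chromosome 4 did not include the share over all chromosomes (35.8%), while those of the other chromosomes did. The intervals are not adjusted for the 19 chromosomes shown. Chromosome 9 held 5.82 members per Mb and chromosome 12 held 6.34, against 2.64 on chromosome 8 and 2.76 on chromosome 7. These counts followed the regions with a THS in all 3 control libraries. Chromosomes 9 and 12 had 397 and 388 of these, and chromosomes 8 and 7 had 167 and 181. The members' share of them was 33.8, 37.1, 35.3 and 32.0% on chromosomes 9, 12, 8 and 7. The extent used here ends at the last THS of a chromosome. In the outer 10% of that extent at either end lay 15.9% of the members, close to the 16.9% of all control-constant regions. It was 18.3% for the regions of all 6 libraries and 11.2% for the regions absent from cold. For members kept by 1 and by 2 cold libraries the shares were 14.1 and 17.4%.

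**Figure D5:**
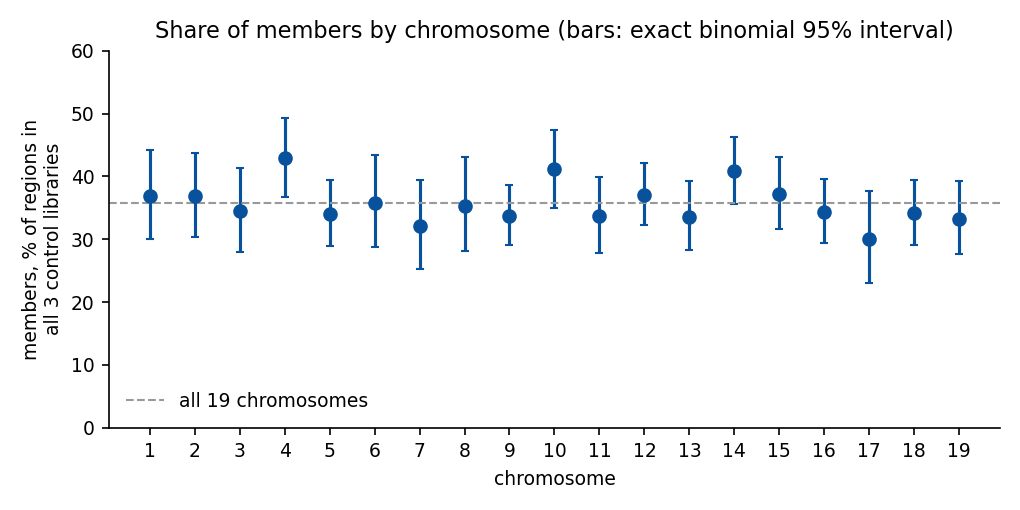
Members as a percentage of the regions with a THS in all 3 control libraries, for each of the 19 chromosomes, with exact binomial 95% intervals that cover counting error only. The dashed line is the share over all chromosomes (35.8%), and the values run from 30.0% on chromosome 17 to 43.0% on chromosome 4.

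Few members lay directly beside a constantly open site. The median distance to the nearest region of all 6 libraries was 33431 bp, and 103 members (5.69%) lay within 1000 bp of one. For members kept by 1 cold library the median was 39685 bp, for those kept by 2 it was 28293 bp, and it was 40540 bp for regions absent from cold. The regions of all 6 libraries had a median distance of 21699 bp to the next of their own kind, and 11.6% lay within 1000 bp. Along the chromosomes, neighbouring members were separated by a median of 102719 bp. Of the 1791 neighbouring pairs, 407 (22.7%) were held by the same cold libraries. This share was 25.8% in 120 pairs less than 5000 bp apart, 24.0% in 475 pairs at 5000 to 50000 bp and 21.9% in 1196 pairs farther apart. The most common patterns made up 30.2 and 28.0% of the set, so many pairs match through pattern frequency alone. The share for pairs taken without regard to position was not computed, and nothing is read from these values.

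The rule has the caller's limit as its threshold. In raw scores (−log10 q), the weakest kept cold call had 1.33 and the weakest control call 1.34, close to the limit of 1.3. A cold call under 2 was the weakest one kept at 164 members (9.06%), and at 106 members (5.86%) the weakest control call was under 2. Just outside the set, 82 of the 2837 regions of all 6 libraries (2.89%) had a weakest cold score under 2, the lowest being 1.37. On the control side, 2325 regions had a THS in 2 control libraries and in 1 or 2 cold libraries. In 433 of these (18.6%) the weakest of all calls held, control or cold, was under 2. This share covers both groups of libraries, so it is not on the same measure as the shares above.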

How the data were processed

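ATAC-seq was performed on Amur grape leaves, with 3 control and 3 cold libraries. Per the study's methods, the authors removed adapters (Cutadapt), aligned the reads by BWA to the 12X grape assembly in its version 2.1, retained unique reads without duplicates, and called THSs in each library with MACS2 (q threshold 0.05, extension 200 bp). The narrowest THSs of cold replicates 2 and 3 (111 and 106 bp) lay far below the stated extension of 200 bp. Those of the other lists (199 to 217 bp) lay close to it. Whether all lists were called with the same settings was not tested. The submitters' processing notes also name FastQC. Tool versions: not given in the sources used here. The deposited score was read as −log10 of the q-value because the lowest values were 1.30 to 1.31. Keeping unique reads leaves out repeats, and calls depend on the depth of each library. The lists hold no read counts. Read totals per library, which the study gives (fewest unique reads in cold replicate 3, then in cold replicate 1), were not used here, and the part of depth in the results was not tested.

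Coordinates were counted from 1. Python 3.11.15 with pandas 2.3.3 and numpy 2.4.6 merged the THSs, which gave the same 44710 regions as bedtools 2.31.1. Merging and classing were tested on made-up lists. Intervals are from scipy 1.17.1 and plots from matplotlib 3.10.9. Presence in control and cold chose the members, so no test between groups was run. The members, classes and alternatives were chosen with earlier results of these data known. The named regions are the 3 with the highest control score in each of the 6 cold patterns, which include the 5 highest of all. Genes, sequence, GC content and motifs were not analysed here.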

Additional observations from a re-analysis of the deposited data

How the results depend on the processing

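No paired analysis was possible because the results come from no test. Of 98 values under 13 alternative settings, 46 stayed within 1.5 times a count, the 95% interval of a share or the spread of the control libraries, and 52 did not. Cold replicate 1 held the largest share of the set and cold replicate 3 the smallest in each setting where both were compared. With scores of at least the median of all lists (4.13), the members numbered 959 (29.7% of control-constant regions) with a median control score of 66.8, of which 41.8% were kept by 1 cold library and 68.8, 59.4 and 29.9% by cold replicates 1, 2 and 3. Lists of equal length (13019) gave 32.9%, a control score of 50.6, 42.2% kept by 1 cold library and 75.5% by cold replicate 1. With 1 width limit of 217 bp these were 49.1%, 54.3, 59.7% and 90.4%, and cold replicates 2 and 3 held 33.9 and 15.9%. That shift over the cold libraries is in part built into the limit. The control scores under the score cut and under lists of equal length are also in part built in. In both, low-scored THSs were dropped while percentiles stayed those of the full lists. Windows of 200 bp gave 37.4%, 50.6, 70.1% for cold replicate 1 and a width of 372 bp, which the windows themselves shorten. With at least 50% of the region covered, the share was 50.7%, the control score 73.9, and 66.0% were kept by 1 cold library and 91.6, 29.3 and 13.2% by cold replicates 1, 2 and 3. Without 1 library the members numbered 1033 to 3099 (20.5 to 40.1%), with a median width of 659 to 784 bp and a control score of 41.8 to 49.4. Then 50.3 to 53.5% were kept by 1 cold library, and cold replicates 1, 2 and 3 held 66.9 to 76.2, 32.5 to 64.5 and 23.8 to 35.5%. With 2 cold libraries left, the rule fixes the share kept by 1. The cause was not tested where fewer THSs or libraries do not account for a shift by construction.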

Other observations

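On sequences other than chromosomes 1 to 19, the same rule was met by further regions. Over all 33 sequences it gave 2144 regions, of which cold replicates 1, 2 and 3 held 72.5, 49.3 and 32.6%, so the split over the cold libraries was close to that of the 1810 regions on chromosomes.

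Among the 113 members with a control score of at least 80, 40 were held by cold replicates 1 and 2, 29 by replicate 1 alone, 21 by replicates 2 and 3, 18 by replicates 1 and 3, 3 by replicate 3 alone and 2 by replicate 2 alone. Over members of all control scores, the THS of cold replicate 3 was narrower than 111 bp in 7.31% of the 260 held by replicates 1 and 3, 4.63% of the 108 held by replicate 3 alone and 3.18% of the 220 held by replicates 2 and 3.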
